A study of Drosophila melanogaster with 3 samples.

Results

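Chrac-16 occupancy was described at the genes of 6 DNA-binding factors, zld, Clamp, grh, opa, Dref and M1BP, out of 13945 annotated protein-coding genes of Drosophila melanogaster. The members were chosen by the known function of their products, with earlier results of these data known. For each one, every ChIP-seq summit in the gene body plus 2 kb on either side was listed. Chrac-16, a histone-fold protein, belongs to the chromatin remodelling complex CHRAC, which slides nucleosomes. The study holds 1 group of 3 biological replicates, each made from whole embryos of both sexes of 0 to 24 h of age. All came from 1 transgenic line, strain Chrac-16-GFP, in which GFP is joined to the C-terminus of Chrac-16, and chromatin was pulled down with an anti-GFP antibody. There is no untreated or mutant group, so all values compare sites, genes or replicates. Whole embryos mix all tissues and stages, so a strong site in few cells and a weaker site in many cannot be told apart.

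The 6 genes encode sequence-specific proteins that open or mark promoters and enhancers. Zelda (zld) is the maternal pioneer factor of zygotic genome activation. CLAMP (Clamp) binds GA repeats and takes part in early genome activation, dosage compensation and histone gene regulation. Grainy head (grh) is the pioneer factor of epithelial enhancers, and Odd-paired (opa), a Zic-type zinc-finger protein, acts as a later pioneer factor during segmentation. Dref binds the DNA replication-related element (DRE), and M1BP binds the core promoter element Motif 1. Both elements are common at promoters of broadly expressed genes. The measurements show where Chrac-16 lay at the genes of these factors, and not where the factors themselves bound.

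The sequences below hold, or lie beside, Chrac-16 summits at Dref, M1BP and zld. None is printed for grh, which had the strongest site described here. Each is read from the release 6 genome (dm6) on the minus strand, which is the sense strand of the member, 5′ to 3′. A single capital marks the summit base in the pooled list, and a run of 7 capitals marks the word TATCGAT. The DNA between the divergent starts of Dref and RpL13, chr2L:9967230-9967312, holds 1 copy of that word:
Dref promoter: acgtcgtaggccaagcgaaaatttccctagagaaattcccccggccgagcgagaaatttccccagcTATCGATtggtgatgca
A second copy lies inside Dref, at chr2L:9967056-9967084:
Dref inner copy: ttttattgcctTATCGATtgacggcgtgt
The M1BP summit lies between the genes M1BP and CG8202, in chr3R:8731933-8732090, where the first printed base adjoins the start of CG8202:
M1BP: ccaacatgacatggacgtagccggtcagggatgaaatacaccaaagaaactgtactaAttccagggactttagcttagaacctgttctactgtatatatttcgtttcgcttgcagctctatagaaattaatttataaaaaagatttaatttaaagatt
The strongest zld summit lay in an intron, in chrX:19770198-19770398, and the next one upstream of the gene, in chrX:19785010-19785210:
zld intron: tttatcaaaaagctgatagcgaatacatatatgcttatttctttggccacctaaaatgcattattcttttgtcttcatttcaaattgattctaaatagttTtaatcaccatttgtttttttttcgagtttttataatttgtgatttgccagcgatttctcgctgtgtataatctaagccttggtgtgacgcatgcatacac
zld upstream: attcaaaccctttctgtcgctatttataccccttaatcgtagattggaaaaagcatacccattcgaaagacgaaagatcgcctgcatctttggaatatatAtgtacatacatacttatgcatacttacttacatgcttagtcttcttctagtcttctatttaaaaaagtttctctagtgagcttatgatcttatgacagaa
The sites held more A and T than G and C, as did most Chrac-16 sites, and no share for other DNA was taken. Within 100 bp of the 7 optimal summits the share of G and C ranged from 25.4% to 38.3%, and the median over all optimal summits was 34.3%.

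Each list carries a signal value for every peak, given by the authors, and ranks count from the strongest peak of a list as 1. The optimal list kept peaks that passed the authors' threshold on the irreproducible discovery rate (IDR). It held 4941 peaks with signals from 99.6 to 3155 and was the strongest part of the pooled list of 24641 peaks, called on all 3 replicates together. The lists of replicates 1, 2 and 3 held 30000, 24619 and 29140 peaks. The scale differs between lists, so replicates were compared by rank or by relative signal. Relative signal is the signal divided by the median of the 4941 strongest peaks of the same list. That median was 57.01, 57.9 and 58.2 in replicates 1, 2 and 3, and 170.4 in the pooled list.

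Of the 6 genes, 4 had at least 1 optimal summit in their window, namely zld with 3, grh with 2, and Dref and M1BP with 1 each. Clamp and opa had none. Among all protein-coding genes the same was true of 38.2%, and longer genes had larger windows. The share was 58.1% among genes of 10 kb or more, where zld, grh and opa belong (2 of these 3 had a summit). It was 32.7% among genes under 5 kb, where Clamp, Dref and M1BP belong (2 of 3). Within 500 bp of an own transcript start, 3 of the 6 genes had an optimal summit (grh, Dref and M1BP), against 22.5% of all protein-coding genes. That share was not matched for the number of starts, of which grh has 5. With 6 genes these shares are a description only. The threshold of 2 kb took in the zld summit 18340 bp past the first start, beyond the end of the gene, and left out a summit 4312 bp upstream of grh (signal 165.2) and another 5840 bp upstream of opa (129.6).

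**Figure D1:**
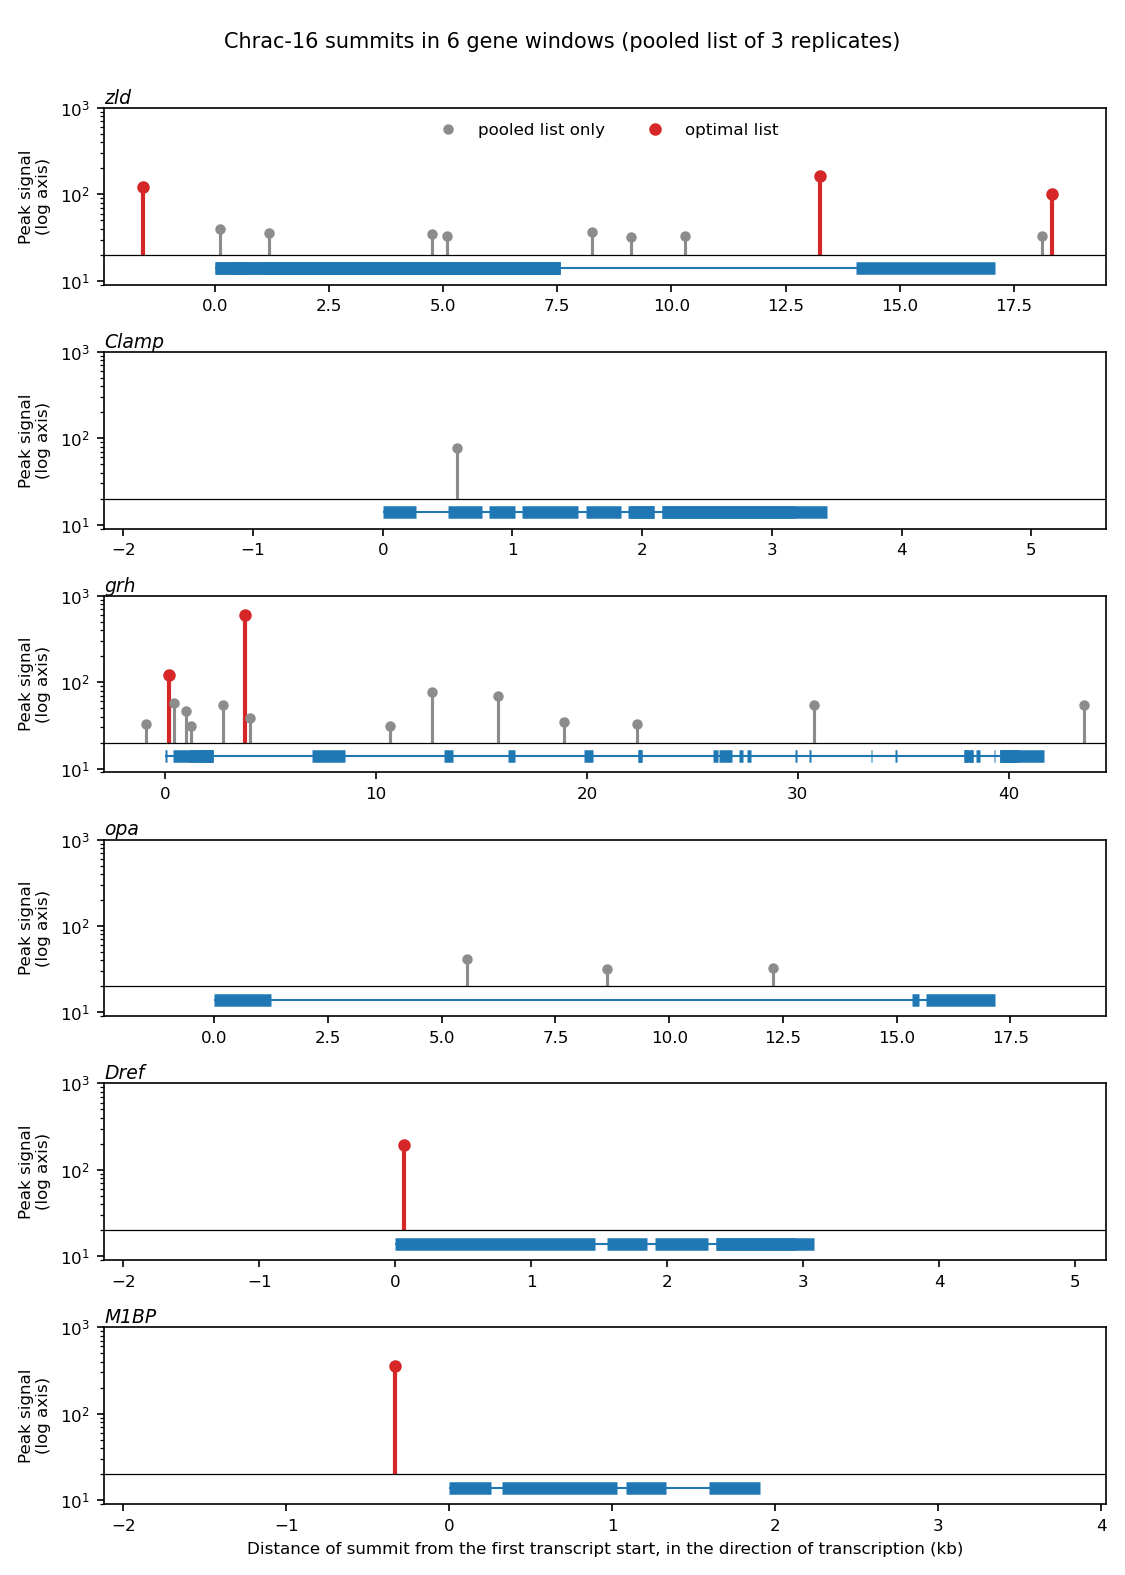
Signal of each pooled summit (vertical, log axis, stems drawn from a baseline of 20) against its distance from the first transcript start of the gene in kb. Red marks the 7 summits of the optimal list, grey those found in the pooled list only, and blue bars are exons of any transcript. The tallest stem is the grh summit at 595.2, and Clamp and opa have no red stem.

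The gene M1BP (FBgn0037621, chr3R:8729790-8731698) had the strongest of the summits within 500 bp of an own start. Its single optimal summit (chr3R:8731927-8732126) had a pooled signal of 356.7 and rank 722, which only 8.81% of protein-coding genes exceeded with their own strongest summit. Signals were 113.9, 95.3 and 132.9 in replicates 1, 2 and 3, at ranks 765, 1165 and 605. All 3 replicates thus placed it well inside their strongest 4941 peaks. The summit lay 335 bp upstream of the M1BP start but 58 bp upstream of the start of CG8202, a protein-coding gene on the opposite strand. The site is therefore nearer to the neighbour, and the peak list cannot say which of both genes it belongs to. Replicate summits fell within 14 bp of each other, against a median range of 43 bp over the optimal peaks found in every replicate. All 3 lay 25 to 39 bp from the pooled summit, on the side of M1BP. They were 83 to 97 bp upstream of the CG8202 start. No list held a further summit in the M1BP window.

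At Dref (FBgn0015664, chr2L:9964147-9967229) the single optimal summit lay in the 5′ UTR, 68 bp downstream of the start (chr2L:9966953-9967368; signal 191.5, rank 2094). RpL13, which encodes a protein of the large cytosolic ribosomal subunit, starts within 500 bp on the other strand, so this promoter is shared as well. The replicates gave signals of 86.1, 43.7 and 66.6, at ranks 1288, 3602 and 2046. Replicate 2 was the low one, at 0.755 of the median of its strongest peaks, where replicate 1 was at 1.51. The coefficient of variation (CV) of relative signal was 33.2%, above the upper quartile of 25.6% over optimal peaks. The Dref level was thus the least repeatable of the 7 optimal sites, though all 3 replicates had it among their strongest peaks. Each replicate list also held weak summits that were nearer to the start of the neighbour CG5850, with signals of at most 18.8, and none was in the pooled list. Those of replicate 1 lay past the 3′ end of Dref, that of replicate 2 in a coding exon and that of replicate 3 in the 3′ UTR.

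The Dref promoter also held near matches to the element that Dref itself binds. The full DRE word of 8 letters, TATCGATA, was absent within 100 bp of the summit, whereas its first 7 letters occurred at 2 positions, both printed above. Counting the start as base 0, one copy spans bases -17 to -11 and the other spans bases 156 to 162. The shorter word was searched only after the sequence had been seen. It occurred in 8.48% of the windows reaching 100 bp either side of all 4941 optimal summits, and 1.36% of them held 2 copies that do not overlap. Around annotated transcript starts, whether or not Chrac-16 was there, 2588 of 23584 windows held it and 2.13% held 2 copies.

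The gene grh (FBgn0259211, chr2R:17801132-17842820), which extends over 41689 bp with 5 annotated starts, carried the strongest site of the 6 genes. It lay in an intron, 3791 bp from the first start and 2056 bp downstream of the nearest one (chr2R:17804780-17805066), with a pooled signal of 595.2 and rank 231. Only 3.36% of protein-coding genes, and 5.97% of those of 10 kb or more, had a stronger summit. Signals were 200.1, 168.5 and 215.1 in replicates 1, 2 and 3, at ranks 215, 354 and 196. This site was the highest of the 7 optimal sites in every replicate. Replicate summits agreed to within 2 bp.

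A second grh summit lay 184 bp downstream of the first start, in an intron (chr2R:17801108-17801523; signal 122.01, rank 3862). The start of an antisense RNA gene, asRNA:CR45270, was nearer, with the summit 153 bp downstream of it. Signals were 40.8, 47.03 and 40.5, at ranks 3893, 3290 and 4076. Here the replicates differed little, with a CV of 8.39%, against a median CV of 16.3% over optimal peaks. The ordering of both grh sites, with the intron far above the promoter, was the same in all replicates.

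Another 13 pooled summits, with signals from 31.4 to 77.5, were spread over the grh window. The highest, 12651 bp from the first start and 561 bp upstream of a later one, had signals of 37.6, 16.02 and 17.8 for the nearest replicate summits. Replicate 2 split this region into 2 peaks, and the one farther from the pooled summit had a signal of 29.2. The next, at 15792 bp and in an intron (68.99), was low in replicate 1, with 12.8, 28.9 and 25.5. The one at 30752 bp, also intronic (54.01), was level, with 15.7, 18.5 and 20.5. Further weak summits lay 158 bp upstream of the second start, 107 bp downstream of it and 68 bp upstream of the last. The first 2 had an overlapping peak in replicate 2 only, and the last in replicates 1 and 3.

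**Figure D2:**
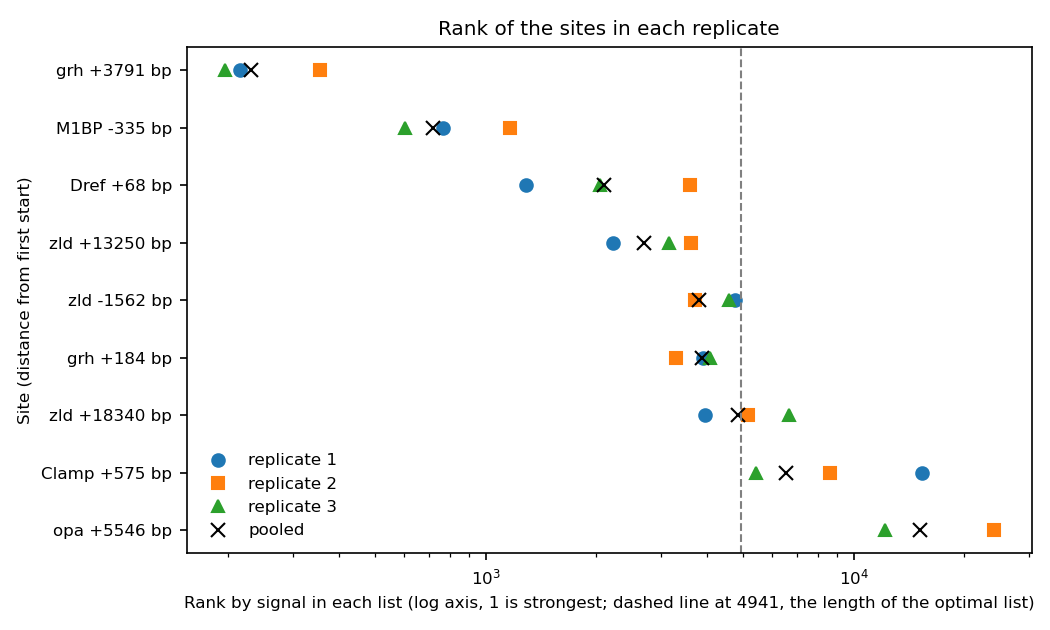
Rank of each site by signal within the list of each replicate and the pooled list (horizontal, log axis), one line per site. The dashed line at 4941 is the length of the optimal list. The grh site at 3791 bp lies between ranks 196 and 354, while the Clamp and opa sites lie right of the line in every list that holds them.

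The gene zld (FBgn0259789, chrX:19766465-19783548; 17084 bp, with 2 starts) had 3 optimal summits and none of them within 500 bp of its own starts. The strongest lay in an intron, 13250 bp from the first start and toward the 3′ end (chrX:19770090-19770505; signal 161.2, rank 2700). Signals were 61.5, 43.7 and 49.3 in replicates 1, 2 and 3, and replicate summits agreed to within 12 bp. A second lay 1562 bp upstream of the gene with no other start within 500 bp (chrX:19784902-19785317; signal 123.4, rank 3808). Its signals of 34.9, 42.7 and 36.7 put it among the strongest 4941 peaks of each replicate, though only just in replicate 1, at rank 4766.

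The third zld summit lay past the 3′ end of the gene, 334 bp upstream of the start of the neighbour CG12702 (chrX:19765000-19765415). With a signal of 101.1 and rank 4851 of 4941 it was close to the end of the optimal list. Signals were 40.5 in replicate 1, 33.01 in replicate 2 and 27.1 in replicate 3. Only replicate 1 had it among its strongest 4941 peaks, and replicate summits spread over 114 bp. Of the 7 optimal sites, the other 6 were among the strongest of all 3 replicates, as were 74.6% of the whole optimal list. Within 100 bp of its summit 61.7% of bases were soft-masked as repeats, the highest share of the 7, and the part of this in the result was not tested.

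At the zld promoter itself only weak peaks were found. The closest pooled summit, 113 bp downstream of the first start, had a signal of 39.8 and rank 15992, and only replicate 2 held an overlapping peak, at 17.3. Over the gene body another 6 summits had signals from 32.1 to 36.9, each with an overlapping peak in a single replicate. Among them, 2 lay in coding exons. Counting the flanks, the zld window had 5.22 pooled summits per 10 kb, against a median of 2.09 over protein-coding genes, while opa, of nearly the same length, had 1.42. The replicate lists did not all share this order. Replicate 1 held 4 summits at zld and 5 at opa, whereas replicate 2 held 7 and 2, and replicate 3 held 9 and 4.

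The pooled summit at Clamp (FBgn0032979, chr2L:22165720-22169143) fell short of the optimal list. It lay in the 5′ UTR, 575 bp downstream of the only start (chr2L:22168360-22168775), with a pooled signal of 77.98 and rank 6567. Signals were 15.5, 22.4 and 32.1 in replicates 1, 2 and 3, at ranks 15312, 8628 and 5441. Replicate 3 was thus the high one and replicate 1 the low one. The CV of relative signal, 34.9%, was the highest of the 9 sites described here. Replicate summits spread over 109 bp, and that of replicate 3 lay 452 bp downstream of the start, in an intron. Replicate 3 alone listed a further summit close to the start, 30 bp upstream of it, with a signal of 12.6.

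Clamp also lies in a stretch of 2L with few Chrac-16 peaks. The nearest optimal summit was 298238 bp away, farther than for all but 91 of the 13945 protein-coding genes. No optimal summit lay in the 1646 kb from there to the end of the arm sequence. The border of this stretch was drawn at that last summit, so the lack of optimal summits follows from the choice and a low count of weaker ones is partly fixed by it. Pooled summits numbered 54 in this stretch, or 3.28 per 100 kb, against 21.1 per 100 kb over the rest of the arm. The replicate lists held 4.92, 4.13 and 4.50 per 100 kb against 25.4, 21.1 and 24.9. They come from the same samples as the pooled and optimal lists and are thus no independent support. Soft-masked or unknown bases made up 37.6% of the stretch and 16.7% of the rest, and their part in the low count was not tested.

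The gene opa (FBgn0003002, chr3R:4852813-4869979) had the lowest best signal of the 6. Its 3 pooled summits, all intronic, had signals of 41.1, 31.6 and 32.4. The strongest, 5546 bp from the start (chr3R:4858151-4858566), ranked 15188, with signals of 12.9 in replicate 2 and 17.8 in replicate 3 and no overlapping peak in replicate 1. None of the 3 was found in all replicates. Of protein-coding genes of 10 kb or more, 87.1% had a stronger summit than opa. No list of any replicate placed a summit within 500 bp of the opa start.

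**Figure D3:**
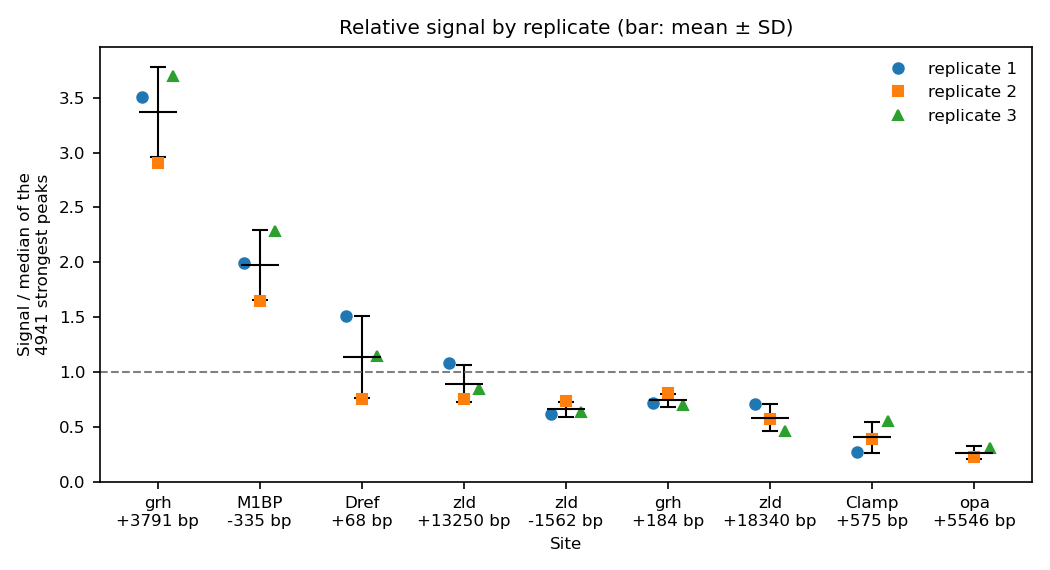
Signal of each site divided by the median of the 4941 strongest peaks of the same replicate (vertical, linear axis), with points for the replicates and bars for mean ± SD. The opa site has points for replicates 2 and 3 only. Sites are drawn in order of pooled rank. The grh site at 3791 bp (2.91 to 3.70) and the M1BP site (1.64 to 2.28) do not overlap. Taken in order of the mean, each site from Dref downward overlaps the next. The zld intron does not overlap the zld upstream site drawn beside it.

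Set side by side on relative signal, the sites separated into a clear upper end and a close lower group. The grh intron reached 3.37 ± 0.412 (SD, n = 3) times the median strong peak. M1BP followed at 1.97 ± 0.320 (SD, n = 3), with no overlap of replicate values with grh above or with Dref below. Dref was at 1.14 ± 0.377 (SD, n = 3) and the zld intron at 0.894 ± 0.168 (SD, n = 3), and their ranges overlap. Within each replicate Dref was above the zld intron, though by almost nothing in replicate 2, at 0.755 against 0.754. The grh promoter at 0.741 ± 0.0622, the zld upstream site at 0.660 ± 0.0676 and the site past zld at 0.582 ± 0.123 (SD, n = 3 each) had ranges that overlap from one to the next. Within each of the 3 replicates the grh promoter was above both of these zld sites. In replicate 1 it was above the site past zld by almost nothing, at 0.715 against 0.711. In the pooled list the zld upstream site had the higher signal, at 123.4 against 122.01 for the grh promoter. The order of both zld sites differed, with the site past zld higher in replicate 1 and the upstream site higher in replicates 2 and 3. Clamp was at 0.403 ± 0.141 (SD, n = 3), and opa was at 0.223 and 0.305 in the replicates that held it. No test was made between sites, since they come from the same 3 samples.

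**Figure D4:**
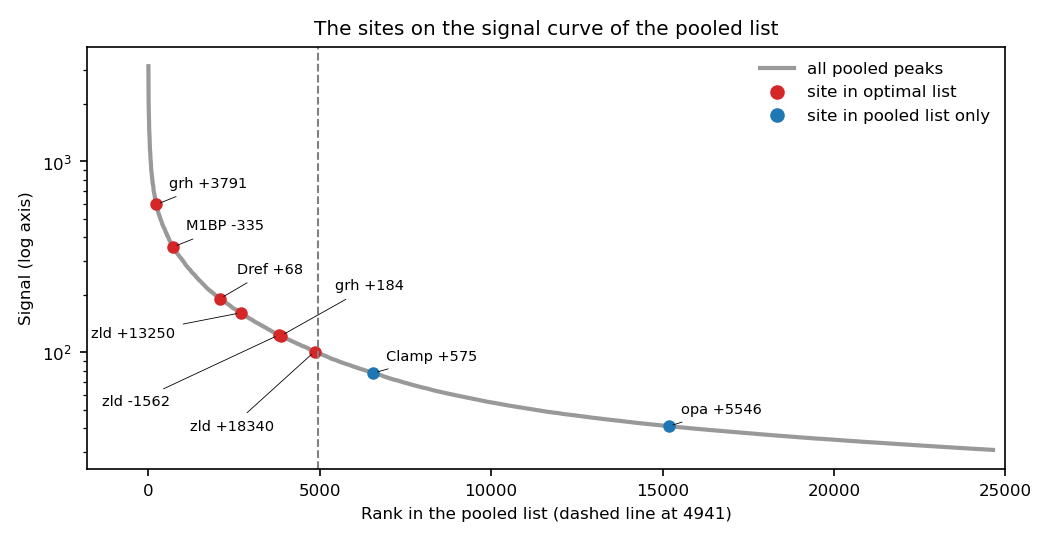
Signal (log axis) against rank for all 24641 pooled peaks (grey line), with the sites of the 6 genes marked and labelled by distance in bp from the first start. The sites run from rank 231 at grh to 15188 at opa, and the dashed line at 4941 separates Clamp and opa from the others.

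All 6 genes had a pooled summit in their window, as did 75.8% of protein-coding genes, and 4 had one within 500 bp of an own start, against 49.7%. The 6 windows held 32 pooled summits, 7 of them optimal. In introns lay 17 of the 32, in 5′ UTRs 7, in coding exons 2, and in the upstream and downstream flanks 3 each. All 17 intronic ones were at zld, grh and opa, the 3 genes of 10 kb or more. No share by place was taken over all pooled peaks, so these counts show no preference. Of the 25 outside the optimal list, 8 (32.0%) overlapped a peak in all 3 replicates, against 39.9% of all 19700 such peaks. However, 3 of these 8 lay 204 to 221 bp from an optimal summit and overlapped at least 1 replicate peak already counted there, which leaves 5 of 22 (22.7%). Leaving out such peaks over the whole pooled list in the same way gave 7222 of 19065 (37.9%). Requiring an overlapping peak in both other replicates left 16 summits without replicate 1, 19 without replicate 2 and 15 without replicate 3.

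The words bound by the 6 factors were rare at Chrac-16 summits in general, and the windows of the 6 genes are too few to tell a difference from that. The words searched on both strands were CAGGTAG (Zelda), TATCGATA (Dref), GGTCACACT (M1BP), GAGAGAGA (CLAMP), AACCGGTT (Grainy head) and CCCNGCTG (Odd-paired, as for other Zic proteins). None of the words contains another. Within 100 bp of all optimal summits they occurred in 0.911%, 3.89%, 1.90%, 1.36%, 0.182% and 1.30% of windows. None of the 7 optimal sites held any of the 6 words. Of the 32 pooled windows 1 did (3.12%), against 8.22% of all pooled windows and 9.23% of optimal ones. This was a Zelda word at the grh summit 390 bp from the first start, a weak peak with a pooled signal of 58.01. A missing word says only that these letters are not in the window.

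Other genes with like roles were counted from a list of GAGA-binding and early factors and a list of core promoter factors and their partners. Of 11 GAGA-binding and early factor genes, 8 had an optimal summit in the window and 3 had one within 500 bp of an own start. The highest were at Trl, the GAGA factor gene (1349), at bcd, the anterior morphogen (424.9), and at slp1, a segmentation gene (289.5). The genes cad, hb and odd had none. Of 13 core promoter factor and partner genes, 11 had an optimal summit and 7 had one at an own start. The highest were at Chro, which encodes Chromator (2479), at gfzf, whose product works with M1BP (413.4), and at E2f1, the cell cycle regulator (359.9). The E2f1 summit was 126 bp upstream of InR and the gfzf summit 16 bp upstream of CG2656, so a neighbour's start was nearer, as at M1BP. The strongest summits of pzg, E2f2, mip120, Tbp, TfIIB and Taf1 were also nearest to a neighbour's start. Only those of Chro, BEAF-32 and XNP were nearest to an own start. Among the early factor genes, the strongest summit was nearest to another gene's start at dl only. Trf2 and mip130 had no optimal summit. The genes without a summit were named after their values were seen. Over all protein-coding genes the shares were 38.2% in the window and 22.5% at an own start. Gene length bears on the first, since 7 of the 11 early factor genes were 10 kb or longer, and 6 of these had a summit, against 58.1% of all genes of that length. Of the core promoter list 3 genes were that long, and 1 had a summit. No test of the lists was made.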

How the data were processed

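ChIP-seq of Chrac-16-GFP was measured in 3 biological replicates, which form 1 group. The signal value of each peak (column 7) and its summit offset (column 10) are the authors' own, as deposited in narrowPeak lists for dm6. Per the listings deposited beside them, replicate and pooled lists were made as input for the IDR procedure with a control alignment, which is not analysed here, and the optimal list was derived from them. The aligner and the program that called peaks were not given in the sources used here. Depth is unknown, since the lists carry no counts of reads. The dm3 lists were not used, since the annotation is for dm6.

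Summits were placed on the Ensembl release 115 annotation (dm6 coordinates), without transposable elements. Windows were the gene body plus 2 kb, and promoters 500 bp either side of a transcript start. A replicate peak matched a pooled peak on an overlap of 1 bp, taking the nearest summit. Summit positions were counted from 1. The 7-letter Dref word and the search within 200 bp were added after the data were seen. Alternatives varied the flank, promoter window, list, overlap and replicates. The calculations were tested on simulated lists. Python 3.11.15 with numpy 2.4.6 and pandas 2.3.3 was used, and sequences were read from the RefSeq release 6 genome. The rule for named sites took every optimal peak of the members and the strongest pooled peak of a member without one. The members and lists were chosen with earlier results of these data known. No statistical test was made, because the design holds 1 group.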

Additional observations from a re-analysis of the deposited data

How the results depend on the processing

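Of the 35 alternatives tried, 27 left a count within 1.5 times its main value and 8 did not. Without the flank, the 6 genes held 4 optimal summits in place of 7, since the M1BP site and 2 zld sites lie outside the gene bodies. In the 2470 stronger optimal peaks, the windows held 3 (the grh intron, M1BP and Dref). In the 12320 stronger pooled peaks they held 14 pooled summits in place of 32, and 15 to 19 when 1 replicate was left out and a peak was required in both others. That requirement by itself lowers the count. With 200 bp on each side of the summit, 4 of 32 windows held a factor word in place of 1, and with the Dref word of 7 letters 2 did. Both of these were chosen after seeing the data. Both can only keep or raise the count, and the matching shares over all windows are not given here. The number of genes with an optimal summit was 3 without the flank and 4 with 5 kb, and 4 whichever replicate was left out. Genes with an optimal summit near an own start numbered 2 within 250 bp and 3 within 1000 bp. In the stronger optimal peaks, 2 had one within 500 bp. With 1 group, there were no groups to pair by replicate number. Read depth is unknown, and only 3 replicates limit each SD.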
